A study of Mus musculus with 15 samples.

Results

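Fatty acid uptake was followed through 9 genes of mouse liver, namely Cd36, Pparg, Fabp4, Fabp2, Vldlr, Lpl, Slc27a1, Slc27a2 and Slc27a4. They were chosen by symbol from the 17527 genes measured, and all 9 had a row. Liver RNA was sequenced in 15 libraries, 5 per group. BBBPH livers came from mice fed for 20 weeks a food that drew 60% of kilocalories from fat, 20% from protein and 20% from carbohydrate, with 0.2% cholesterol, and given sugar water at 42 g/L (55% sucrose, 45% fructose). After week 12 these mice received 150 mg/kg of biotransformed bear bile powder by mouth each day, with 14 mice dosed. Model livers came from mice on the same diet and water for 20 weeks, given saline over the dosing period; this regimen is used as a model of nonalcoholic steatohepatitis (fatty liver with inflammation). The labels name the control livers as such and do not say what those mice ate or drank. Strain, sex and age are not given in the sources used here. The labels do not state that each library was a separate mouse, so p-values measure the spread between these libraries.

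CD36 is a membrane protein that binds long-chain fatty acids and oxidised lipoproteins and helps fatty acids enter cells. PPAR-gamma, the product of Pparg, is a nuclear receptor that pairs with the retinoid X receptor (RXR) and switches on genes of fat uptake and storage, Cd36 and Fabp4 among them. It is scarce in normal liver, abundant in fat tissue, and known to increase in fatty mouse liver. Lipoprotein lipase (Lpl) frees fatty acids from triglyceride-rich particles, the very-low-density lipoprotein receptor (Vldlr) takes up such particles, transport proteins of the Slc27 family take up and activate fatty acids, and the small Fabp proteins bind them inside the cell.

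The libraries held 35395712 to 39624160 fragments. Values are the deposited FPKM (fragments per kilobase of gene, scaled to library size). Fold changes are differences of mean log2(FPKM + 1), a scale that understates changes of genes near or under 1 FPKM. A gene was called at a limma adjusted p under 0.05 (Benjamini and Hochberg, over the 9575 genes that averaged 1 FPKM or more). Hepatocyte markers led every library, with a sum over 7 genes of 56131.7 to 66458.2 FPKM in BBBPH, 32455.5 to 56229.5 in model and 61506.5 to 69486.7 in control livers. Each group had 1 library unlike the rest. BBBPH 2_2 held pancreas RNA (Ctrb1 at 978 FPKM, at most 0.905 elsewhere), model 1_4 had high acute-phase RNA (Saa2 at 14965.1 FPKM, at most 193.5 elsewhere), and control 2_1 held skeletal muscle RNA (Tnnt3 at 70.0 FPKM, at most 0.145 elsewhere). Calls of members and counts over the related gene lists that change by over 1.5 times without these 3 libraries are given both ways.

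The upstream sequences of Cd36 and Pparg are shown because these members had the largest log2 differences of the 8 tested in model against control and in BBBPH against model livers, and PPAR-gamma with RXR binds a direct repeat of AGGTCA with 1 base between the copies. The 250 bases before each annotated start (RefSeq, GRCm38.p6) are printed 5' to 3' on the gene's strand, with capitals marking any single copy of AGGTCA, which reads in reverse complement as TGACCT where it lies on the other strand. The Cd36 window is chr5:17835897-17836146 (minus strand), and Pparg has windows at 3 starts, chr6:115360894-115361143, chr6:115362099-115362348 and chr6:115421816-115422065 (plus strand). The GENCODE M21 annotation of Cd36 reaches to 17888801, upstream of its window, and any starts there were not searched.
Cd36: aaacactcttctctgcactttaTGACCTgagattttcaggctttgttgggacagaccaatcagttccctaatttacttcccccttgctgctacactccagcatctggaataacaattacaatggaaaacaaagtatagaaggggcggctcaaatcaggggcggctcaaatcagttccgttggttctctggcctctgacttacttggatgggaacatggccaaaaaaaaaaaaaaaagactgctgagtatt
Pparg, the first start: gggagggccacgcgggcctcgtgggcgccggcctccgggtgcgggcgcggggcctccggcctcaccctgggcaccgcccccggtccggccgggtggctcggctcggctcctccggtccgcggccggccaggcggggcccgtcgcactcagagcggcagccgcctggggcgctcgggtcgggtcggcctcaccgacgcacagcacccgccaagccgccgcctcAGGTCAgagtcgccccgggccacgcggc
Pparg, the second start: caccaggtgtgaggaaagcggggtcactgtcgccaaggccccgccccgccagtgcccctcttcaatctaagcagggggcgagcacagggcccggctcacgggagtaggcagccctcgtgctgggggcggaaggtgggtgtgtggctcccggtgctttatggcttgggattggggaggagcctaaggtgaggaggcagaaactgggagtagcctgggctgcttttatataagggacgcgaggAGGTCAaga
Pparg, the third start: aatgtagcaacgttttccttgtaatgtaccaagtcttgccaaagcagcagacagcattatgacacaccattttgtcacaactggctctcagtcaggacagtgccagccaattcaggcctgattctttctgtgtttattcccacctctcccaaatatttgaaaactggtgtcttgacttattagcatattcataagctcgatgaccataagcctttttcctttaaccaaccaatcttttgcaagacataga
RefSeq windows were found for 7 members, 12 windows in all. None of the 12, searched over 250 bases before to 50 after the start, held the repeat AGGTCANAGGTCA on either strand, which occurs in 0.0396% of the 32851 windows of that length. The looser form AGGNCANAGGNCA was found in none of the 12 and in 0.381% of all windows. A lone AGGTCA was found once in each of 4 windows, those of Cd36, the first and second Pparg starts and Slc27a2, and it occurs in 16.3% of all windows. No match says only that these letters were not in these windows. The first Pparg window had a G and C content of 82.4%, and that of the third start 40.8%. FPKM were summed per gene, so the transcripts from the 3 Pparg starts cannot be told apart.

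In model against control livers, 7 of the 8 members tested were called higher and 0 lower (limma). Among all 9575 genes tested, 38.6% were called, 29.9% higher and 8.64% lower. Cd36 and Pparg had the largest log2 differences of these members. The members' median log2 difference was 0.65, beside 0.12 over all genes. That background split depends on scaling, with 2865 genes higher and 827 lower as deposited, and 1483 higher and 1809 lower after median-ratio scaling, which sets the median of all genes near 0. With that scaling 5 members were called higher and 0 lower, since Lpl (adjusted p = 0.0513) and Slc27a1 (adjusted p = 0.0525) missed the threshold.

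In BBBPH against model livers, 4 of the 8 tested members were called lower, namely Cd36, Pparg, Lpl and Slc27a4, and 0 were called higher (limma). Over all genes 26.5% were called, 14.2% higher and 12.2% lower. The members' median log2 difference was -0.45, beside 0.02 over all genes. In BBBPH against control livers, 4 members were called higher, namely Cd36, Fabp2, Slc27a1 and Slc27a4, and 0 lower. Over all genes 28.1% were called, 24.4% higher and 3.7% lower, or 2337 and 354 genes as deposited and 667 and 944 after median-ratio scaling. The members' median was 0.30, beside 0.13 over all genes. These 3 comparisons share libraries pairwise, so each gives its own values and they are not independent of each other. In bulk RNA, fewer cells of a type and less RNA per cell cannot be told apart.

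**Figure D1:**
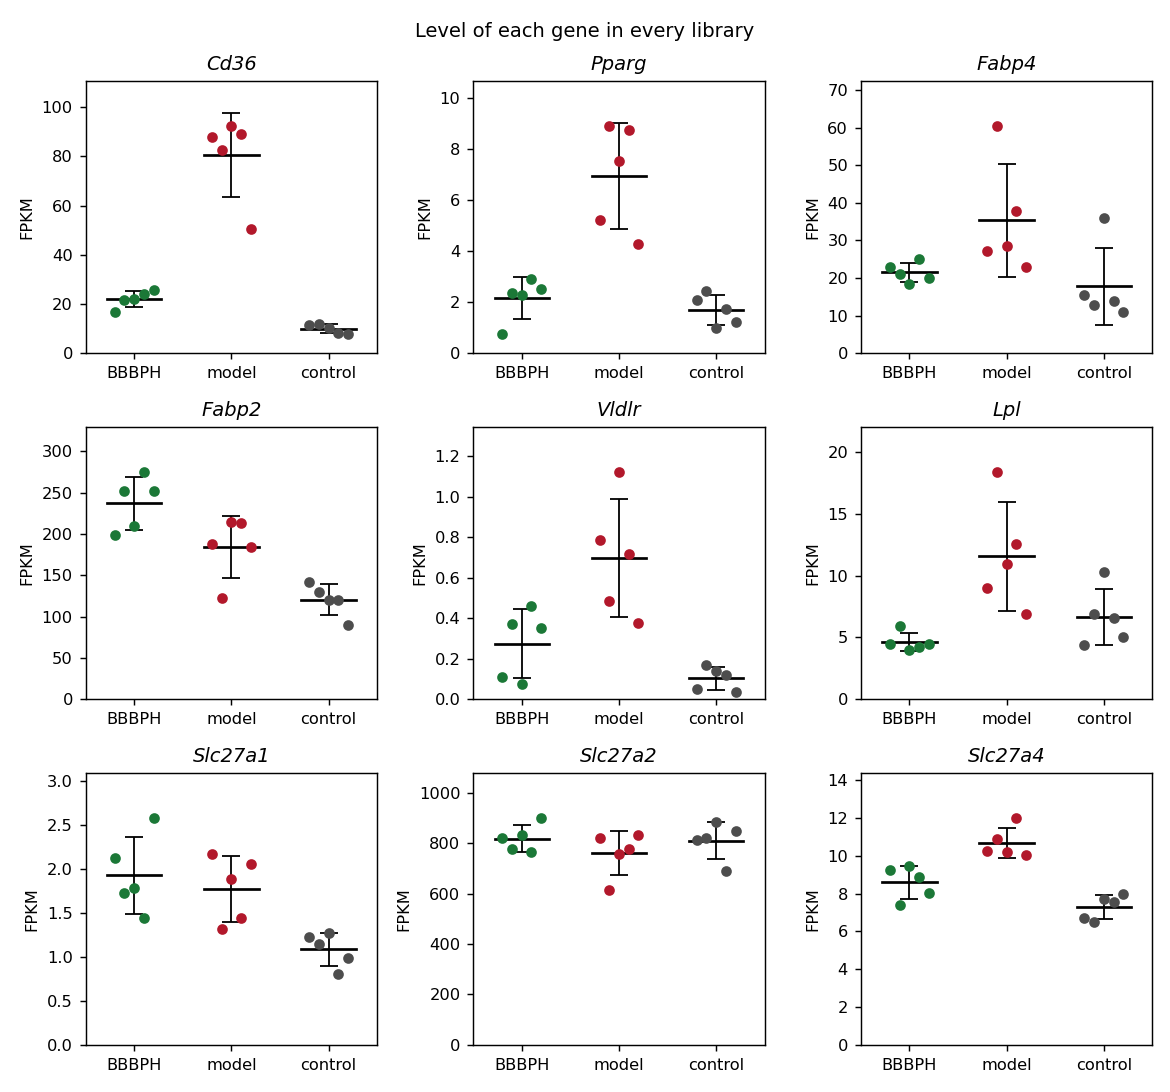
Level of each of the 9 genes (FPKM, linear axes from 0) in every library of the BBBPH, model and control groups. Points are libraries, lines are means and bars are SD (n = 5). Cd36 lies between 50.6 and 92.2 FPKM in model livers, above every BBBPH and control library, while Slc27a2 overlaps between all groups.

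Cd36 (ENSMUSG00000002944, chromosome 5, 17781690 to 17888801, minus strand, GENCODE M21 on GRCm38) was intermediate in BBBPH livers, high in model livers and low in control livers. In the order of library labels (2_1, 2_2, 3_1, 3_2, 3_4 for BBBPH, 1_1, 1_4, 2_1, 2_3, 3_4 for model and 1_1, 1_5, 2_1, 2_2, 3_4 for control, kept below), its levels were 16.9, 21.7, 22.1, 24.1 and 25.6 FPKM in BBBPH livers, 87.9, 82.6, 92.2, 88.9 and 50.6 FPKM in model livers, and 11.6, 12.0, 10.4, 8.31 and 7.79 FPKM in control livers. No library of one group reached the range of another. The mean was 80.4 ± 17.0 FPKM in model and 10.03 ± 1.90 FPKM in control livers (SD, n = 5 each), 8.02 times as high. On the log2 scale the difference was 2.87 (SE 0.16, limma adjusted p = 5.2e-08), the smallest p of all genes tested and the 10th largest rise. In BBBPH livers the mean was 22.1 ± 3.29 FPKM, 0.274 of the model mean, with a log2 difference from model of -1.80 (SE 0.16, adjusted p = 4.8e-06). The BBBPH mean was 2.20 times the control mean (log2 difference 1.07, SE 0.16, adjusted p = 0.000571). Fragment numbers were ample, from 1006 to 12376 per library. Model 3_4, at 50.6 FPKM, stood below the other 4 model libraries.

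Pparg (ENSMUSG00000000440, chromosome 6, 115360951 to 115490399, plus strand) was likewise higher in model than in control livers, at a much lower level. It measured 0.766, 2.37, 2.29, 2.92 and 2.53 FPKM in BBBPH livers, 5.23, 8.88, 7.52, 8.76 and 4.29 FPKM in model livers, and 2.11, 2.43, 0.989, 1.72 and 1.24 FPKM in control livers. The model range lay above both other ranges, and BBBPH and control libraries overlapped. Model livers averaged 6.94 ± 2.08 FPKM and control livers 1.70 ± 0.594 FPKM, a log2 difference of 1.54 (SE 0.23, limma adjusted p = 0.000133). BBBPH livers averaged 2.18 ± 0.825 FPKM, and their log2 difference from model livers was -1.33 (SE 0.23, adjusted p = 0.000606). Against control livers the BBBPH difference of 0.21 (SE 0.23) was not called (adjusted p = 0.492), which does not show that the levels were equal. A noncoding gene on the opposite strand, Gm44079, lies over Pparg but shares 0 exon bases with it.

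The genes whose pattern over the 15 libraries was most like that of Cd36 were Vwa8 (Pearson r of log2 levels 0.98), Lonp2, a protease of peroxisomes (0.98), Nt5e, an enzyme that makes adenosine (0.97), Plin4, a lipid droplet coat protein (0.97), and Rcan2, an inhibitor of calcineurin (0.97). Those most like Pparg were Rcan2 (0.94), Entpd5 (0.94), Basp1 (0.93), Hsbp1 (0.93) and Rexo2 (0.93). Cd36 and Pparg correlated at 0.91, which placed Pparg 114th in likeness to Cd36 and Cd36 26th in likeness to Pparg. These values describe libraries that share group, diet and depth, and no test was made on them. Among the other members, Slc27a4 was nearest to Cd36 (0.85), Fabp4 (0.71) and Lpl (0.62) followed, and Slc27a2 ran the other way (-0.32).

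**Figure D2:**
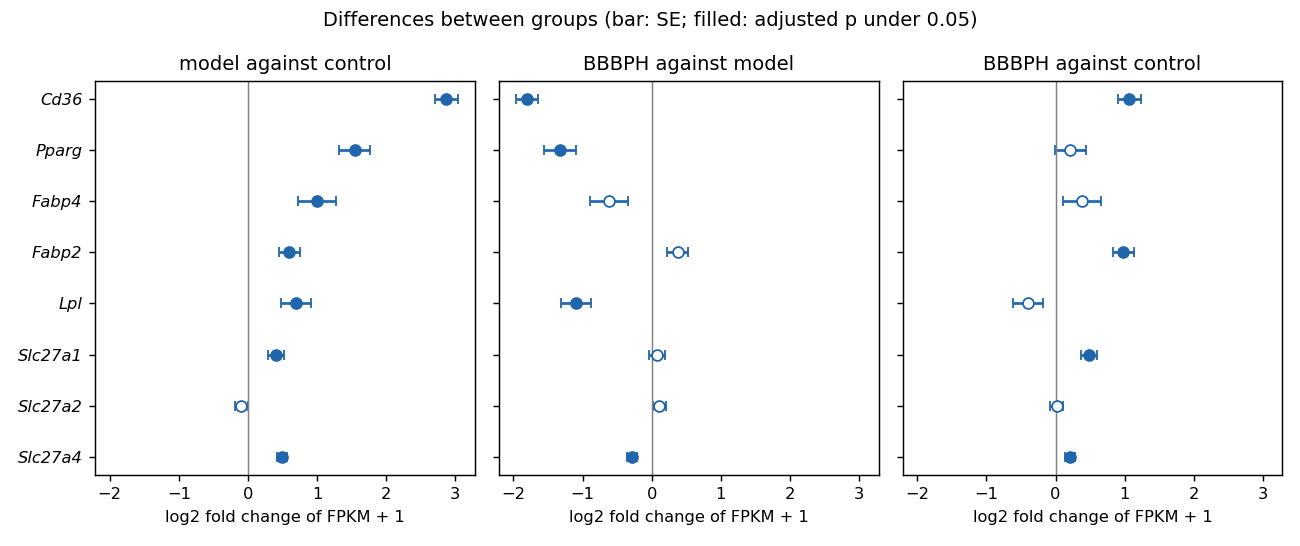
Differences in log2(FPKM + 1) for the 8 members in the test, in the comparisons of model against control, BBBPH against model and BBBPH against control. Bars are SE, and filled points have a limma adjusted p under 0.05. Cd36 stands at 2.87, -1.80 and 1.07, and Fabp2 at 0.60, 0.38 and 0.98.

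The 3 Slc27 members, which carry and activate fatty acids, differed widely in level. Slc27a2 (ENSMUSG00000027359, chromosome 2, 126552407 to 126588243, plus strand), a very long-chain fatty acid transporter and ligase typical of liver and kidney, was the most abundant member in every group, at a mean of 818.8 ± 53.4 FPKM in BBBPH, 760.5 ± 86.1 in model and 810.6 ± 73.7 in control livers. Its groups overlapped in every comparison and it was called in none. The log2 differences were -0.09 in model against control (adjusted p = 0.426), 0.11 in BBBPH against model (adjusted p = 0.393) and 0.02 in BBBPH against control (adjusted p = 0.907), each with SE 0.09. A noncoding gene, Gm26697, shares 419 exon bases with it on the opposite strand, and the strand setting of the counting is not given, so reads there cannot be told apart.

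Slc27a4 (ENSMUSG00000059316, chromosome 2, 29802634 to 29817522, plus strand), the main fatty acid transporter of the gut and also active in skin, measured 9.25, 7.39, 9.48, 8.87 and 8.04 FPKM in BBBPH livers, 10.2, 10.9, 10.2, 12.0 and 10.1 FPKM in model livers, and 6.70, 6.52, 7.71, 7.55 and 7.97 FPKM in control livers. Model libraries lay above all others. The spread was small, with a coefficient of variation of 10.2% in BBBPH, 7.56% in model and 8.78% in control livers. Model against control gave a log2 difference of 0.49 (SE 0.08, adjusted p = 0.000199) and BBBPH against model one of -0.28 (SE 0.08, adjusted p = 0.0126). Without the 3 libraries that stood apart, the fall in BBBPH against model livers was no longer called (-0.23, adjusted p = 0.0789). The BBBPH rise over control of 0.21 was at the edge (adjusted p = 0.0490) and was called under 7 of 29 alternatives, not under median-ratio scaling (0.06, adjusted p = 0.656).

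Slc27a1 (ENSMUSG00000031808, chromosome 8, 71568882 to 71587302, plus strand), the insulin-responsive transporter of muscle and fat, was scarce in liver. Its levels were 2.12, 1.73, 1.78, 1.44 and 2.58 FPKM in BBBPH livers, 2.16, 1.31, 1.89, 1.45 and 2.05 FPKM in model livers, and 1.22, 1.148, 1.27, 0.803 and 0.988 FPKM in control livers. Every BBBPH and every model library exceeded every control library, while BBBPH and model libraries overlapped. Model against control differed by 0.41 (SE 0.11, adjusted p = 0.0106) and BBBPH against control by 0.48 (SE 0.11, adjusted p = 0.00663). BBBPH against model differed by 0.08 (SE 0.11, adjusted p = 0.655). The model rise missed the threshold with quantile scaling (0.27, adjusted p = 0.108), as did the BBBPH rise over control (0.34, adjusted p = 0.0823).

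Fabp2 and Fabp4 bind fatty acids inside cells. Fabp2 (ENSMUSG00000023057, chromosome 3, 122895072 to 122899506, plus strand), the intestinal form and a marker of enterocytes, was the second most abundant member. It measured 198.4, 251.9, 209.6, 274.8 and 251.6 FPKM in BBBPH livers, 188.1, 122.2, 214.2, 213.4 and 184.3 FPKM in model livers, and 141.3, 129.2, 120.5, 120.6 and 90.3 FPKM in control livers. All BBBPH libraries exceeded all control libraries, and only model 1_4 among the model libraries fell within the control range. Model against control gave a log2 difference of 0.60 (SE 0.15, adjusted p = 0.00634) and BBBPH against control one of 0.98 (SE 0.15, adjusted p = 0.000653). BBBPH livers were 1.29 times as high as model livers, which was not called (0.38, adjusted p = 0.0792). The 5 other enterocyte markers with a row, of 6 listed, stayed under 1 FPKM in every library, with Fabp6 at 0 throughout and Lct and Alpi at 0 in all BBBPH and model libraries. An antisense gene at the locus, 4933405D12Rik, shares 0 exon bases with Fabp2.

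Fabp4 (ENSMUSG00000062515, chromosome 3, 10204088 to 10208576, minus strand), the binding protein of fat cells, macrophages and capillary endothelium, measured 22.8, 21.03, 18.4, 25.2 and 20.1 FPKM in BBBPH livers, 27.1, 60.3, 28.6, 37.9 and 22.9 FPKM in model livers, and 15.6, 12.8, 36.0, 13.8 and 10.9 FPKM in control livers. Model 1_4 and control 2_1 lay above the other libraries of their groups, and the groups overlapped in all comparisons. Model against control was called (log2 difference 0.998, SE 0.28, adjusted p = 0.0104). BBBPH against model was not (-0.61, SE 0.28, adjusted p = 0.115), nor was BBBPH against control (0.38, SE 0.28, adjusted p = 0.310). Without control 2_1, BBBPH livers were called higher than control livers (0.66, adjusted p = 0.0335) and lower than model livers (-0.61, adjusted p = 0.0345). Without all 3 libraries that stood apart, the difference between BBBPH and control was 0.67 (adjusted p = 0.00908), that between BBBPH and model -0.40 (adjusted p = 0.0772), and that between model and control 1.07 (adjusted p = 0.000325).

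Lpl (ENSMUSG00000015568, chromosome 8, 68880491 to 68907448, plus strand) measured 4.46, 5.94, 3.996, 4.25 and 4.50 FPKM in BBBPH livers, 9.02, 18.4, 10.9, 12.6 and 6.87 FPKM in model livers, and 4.39, 6.93, 10.3, 6.56 and 5.06 FPKM in control livers. BBBPH libraries all lay below the model range, and model and control libraries overlapped. The fall in BBBPH against model livers was -1.10 on the log2 scale (SE 0.22, adjusted p = 0.00172), 0.400 of the model mean. The rise in model against control livers was 0.70 (SE 0.22, adjusted p = 0.0193), and it missed the threshold without control 1_1 (0.58, adjusted p = 0.0532). BBBPH livers had 4.63 ± 0.760 FPKM and control livers 6.65 ± 2.29 FPKM, a difference that was not called (-0.40, adjusted p = 0.173).

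Vldlr (ENSMUSG00000024924, chromosome 19, 27216484 to 27254231, plus strand) was the one member with a mean under 1 FPKM, and was therefore tested alone. It measured 0.111, 0.372, 0.0754, 0.458 and 0.353 FPKM in BBBPH livers, 0.787, 0.484, 1.12, 0.717 and 0.375 FPKM in model livers, and 0.0523, 0.167, 0.137, 0.121 and 0.0356 FPKM in control livers. These rested on 35 to 221, 173 to 524 and 16 to 78 fragments per library in the BBBPH, model and control groups. Every model library exceeded every control library, and the model mean of 0.697 ± 0.290 FPKM was 6.79 times the control mean of 0.103 ± 0.0564 FPKM. An exact 2-sided permutation test of mean log2(FPKM + 1) gave p = 0.00794, the smallest that 5 against 5 libraries can give (adjusted over the 3 comparisons p = 0.0238). BBBPH against model gave an exact p = 0.0159 (adjusted p = 0.0238), with 0.393 of the model mean and ranges that overlapped. BBBPH against control gave an exact p = 0.103 (adjusted p = 0.103). The fall in BBBPH livers missed the threshold without model 1_1, 2_1 or 2_3 (adjusted p = 0.0595 each, exact permutation), and BBBPH livers were called higher than control livers without BBBPH 2_1 or 3_1 (adjusted p = 0.0476 each, exact permutation).

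Across members, the order of median levels was Slc27a2, Fabp2, Cd36, Fabp4, Slc27a4, Lpl, Pparg, Slc27a1 and Vldlr in BBBPH livers. In model livers it differed in that Lpl stood above Slc27a4, and in control livers Fabp4 stood above Cd36. Such an order depends on the gene lengths used for FPKM. Those read back from the values were 4049 bases for Lpl and 869 for Fabp4, beside 10478 and 4489 exon bases in GENCODE M21. Neighbours whose ranges overlapped were Cd36 with Fabp4 and Pparg with Slc27a1 in BBBPH livers, Cd36 with Fabp4 and Lpl with Slc27a4 in model livers, and Fabp4 with Cd36, Cd36 with Slc27a4, Slc27a4 with Lpl and Pparg with Slc27a1 in control livers. Within groups the same library was often at an extreme. Model 3_4 was the lowest model library for 6 of the 9 members (Cd36, Pparg, Fabp4, Vldlr, Lpl and Slc27a4), and model 1_4 was the highest for Pparg, Fabp4 and Lpl and the lowest for Fabp2, Slc27a1 and Slc27a2. Control 3_4 was lowest for Cd36, Fabp4, Fabp2 and Vldlr.

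Levels of other cells' genes moved with some members. Fabp4 and Lpl were highest among control livers in control 2_1, where the 6 skeletal muscle markers summed to 350.5 FPKM (at most 1.83 in its group otherwise). Slc27a1 and Slc27a2 were also highest in that library. Fabp4 and Lpl were highest among model livers in model 1_4, where the 6 lipid-associated macrophage markers summed to 284.5 FPKM, mostly from Spp1 at 251.8. That list summed to 32.0 to 52.0 FPKM in BBBPH, 35.3 to 284.5 in model and 32.5 to 39.6 in control livers. Of its 5 tested genes, 3 (Trem2, Gpnmb and Mmp12) were called higher in model against control and lower in BBBPH against model livers. Median levels in BBBPH, model and control livers were 0.812, 2.44 and 0.706 FPKM for Trem2. They were 0.444, 2.35 and 0.157 FPKM for Gpnmb, and 0.508, 4.39 and 0.0733 FPKM for Mmp12. These genes passed the filter through the model group, which favours such calls. Spp1 was called in neither comparison (limma adjusted p = 0.123 and 0.175). General macrophage and Kupffer cell markers were called higher for 1 of 10 in model against control and for 2 of 10 in BBBPH against model livers, with 0 lower in both. Endothelial markers were called higher for 4 and lower for 1 of 9 tested genes in model against control livers, and for 1 in each direction in BBBPH against model livers. Stellate cell and fibroblast markers were called higher for 7 of 7 in model against control and lower for 3 in BBBPH against model livers. Hepatocyte markers were called lower for 4 of 7 and higher for 0 in model against control livers. In BBBPH against model livers, 1 hepatocyte marker was called higher and 0 lower. Of the 7 adipocyte markers, Adipoq, Plin1, Lep, Adrb3 and Retn reached at most 1.53 FPKM in any library. Cidea and Car3 were called higher in model against control and lower in BBBPH against model livers. Cidea also passed the filter through the model group, with medians of 0.0434 FPKM in BBBPH, 6.78 in model and 0.0243 in control livers. Over all genes, 29.9% were called higher and 8.64% lower in model against control livers, and 14.2% and 12.2% in BBBPH against model livers. The part of these cells in the members' differences was not tested.

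**Figure D3:**
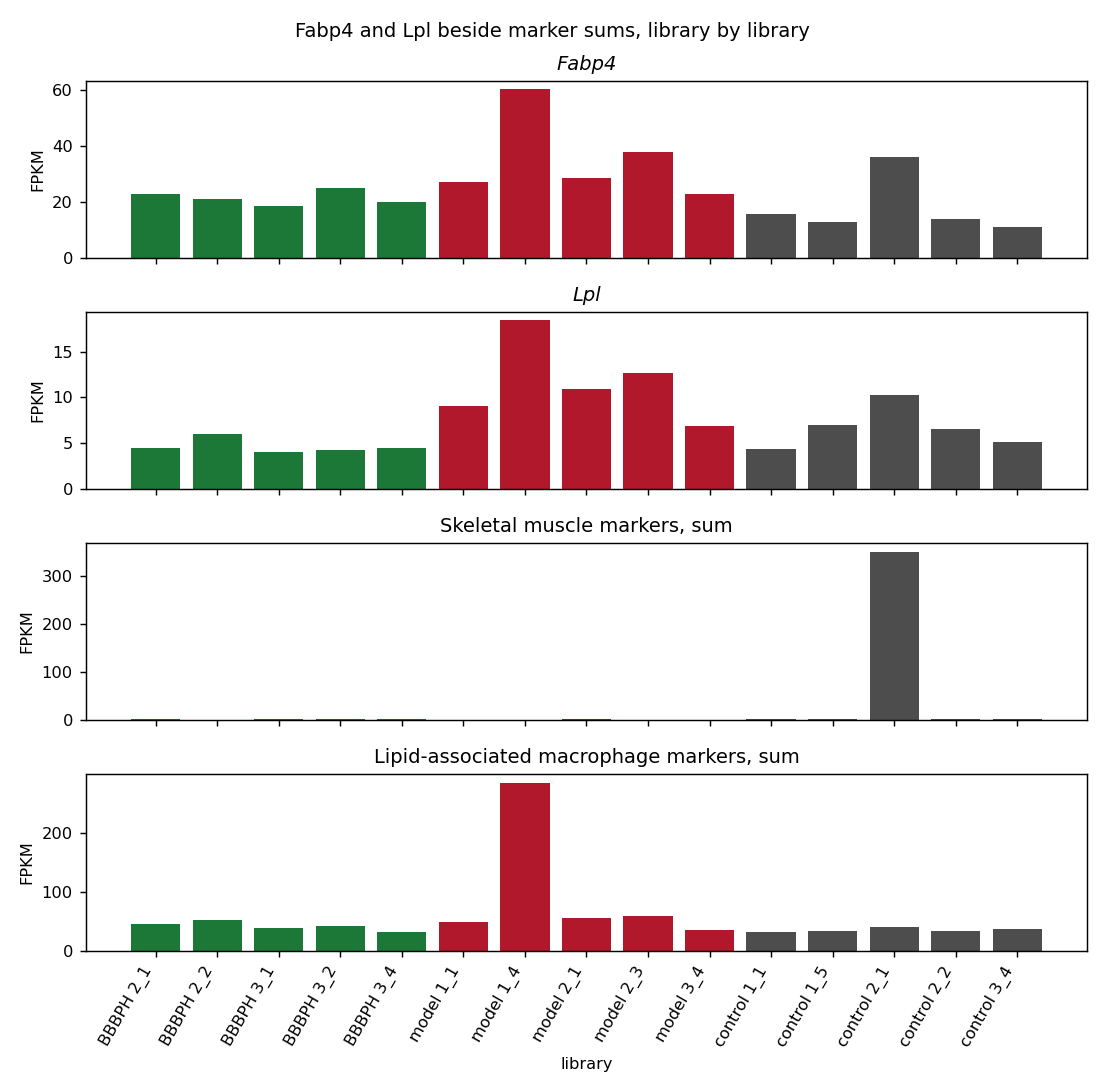
Fabp4, Lpl and the summed markers of skeletal muscle and of lipid-associated macrophages (FPKM, linear axes from 0) in the 5 BBBPH, 5 model and 5 control libraries. Control 2_1, with 350.5 FPKM of muscle markers, has the highest Fabp4 and Lpl of its group, and model 1_4, with 284.5 FPKM of macrophage markers, has those of its own.

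Of 18 other genes of fatty acid uptake, activation and binding, 14 were tested, and in model against control livers 2 were called higher (Got2 and Acbd3) and 3 lower, with a median of -0.11 beside 0.12 over all genes. Median-ratio scaling gave 0 higher and 5 lower. The 3 lower ones were Acsl4 (-0.98, adjusted p = 0.000117), Acsl3 (-0.73, adjusted p = 0.000511) and Fabp5 (-2.52, adjusted p = 0.000949). Acsl3 and Acsl4 couple fatty acids to coenzyme A, and Acsl4 prefers arachidonic acid. In BBBPH against model livers 3 were called higher, Acsl3 (0.94, adjusted p = 0.000111), Acsl4 (0.84, adjusted p = 0.000510) and Fabp1 (0.66, adjusted p = 0.0057), and 1 lower (Slc27a5, adjusted p = 0.0348), with a median of 0.17 beside 0.02. The lower call was lost without BBBPH 2_2, 3_1 or 3_2, without model 2_1 or 3_4, and without the 3 libraries that stood apart, and 2 were lower without control 1_1. Without control 3_4, 5 were called higher. Acsl4 averaged 12.3 ± 1.72 FPKM in BBBPH, 6.43 ± 1.29 in model and 13.6 ± 2.69 in control livers. Fabp1, the abundant binding protein of liver, averaged 13431 ± 1806.6 FPKM in BBBPH, 8595.3 ± 1839.6 in model and 9813.5 ± 1376.9 in control livers, and its rise in BBBPH against model livers was not called with quantile scaling. Slc27a5, the liver's bile acid and fatty acid ligase, averaged 255.7 ± 30.7 FPKM in BBBPH, 314.5 ± 27.7 in model and 375.8 ± 42.0 in control livers. In BBBPH against control livers 2 were called higher and 2 lower (0 and 2 with median-ratio scaling), with a median of 0.14 beside 0.13. The higher count was 0 without BBBPH 2_2, 3_2 or 3_4 or control 2_1 or 3_4, and 1 without BBBPH 3_1 or control 2_2 and without the 3 libraries that stood apart. Beside this list and the 3 below, 29.9% of all genes were called higher and 8.64% lower in model against control livers. The shares were 14.2% and 12.2% in BBBPH against model livers, and 24.4% and 3.7% in BBBPH against control livers.

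Of 19 genes that control lipases or take up lipoproteins, 18 were tested. In model against control livers 3 were called higher and 3 lower (1 and 6 with median-ratio scaling), with a median of -0.07. Gpihbp1, the endothelial anchor of lipoprotein lipase (0.32, adjusted p = 0.00715), and Lmf1, which matures it (0.28, adjusted p = 0.00795), were called higher, and both missed the threshold with median-ratio and quantile scaling. Scarb1, the receptor for high-density lipoprotein, was lower (-0.30, adjusted p = 0.00978). In BBBPH against model livers 6 were called higher and 3 lower, with a median of 0.07. Lsr, a receptor of triglyceride-rich particles, was higher (0.79, adjusted p = 0.000118), and Apoc1, an apolipoprotein that slows their uptake, was lower (-0.53, adjusted p = 0.00126). In BBBPH against control livers 5 were called higher and 3 lower (2 and 6 with median-ratio scaling), with a median of 0.13 beside 0.13 over all genes.

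Partners and regulators of PPAR-gamma (20 listed, 18 tested) were called higher for 2 and lower for 2 in model against control livers (1 and 6 with median-ratio scaling), with a median of 0.05. Without model 2_1 or control 1_1, 1_5 or 2_2, 1 was called higher. Ahr, the aryl hydrocarbon receptor, was higher (1.23, adjusted p = 0.00118), and Nr1i2, the pregnane X receptor (-0.29, adjusted p = 0.0153), and Srebf1, the driver of fat synthesis (-0.82, adjusted p = 0.0155), were lower. In BBBPH against model livers 6 were called higher and 3 lower, with a median of 0.17. Nr1i2 (0.48, adjusted p = 0.000824) and Srebf1 (1.25, adjusted p = 0.00166) were among those called higher. Srebf1 averaged 27.3 ± 8.80 FPKM in BBBPH, 10.7 ± 2.70 in model and 20.2 ± 6.94 in control livers. RXR-alpha, the pairing partner encoded by Rxra, was called in neither of these 2 comparisons (adjusted p = 0.0847 in model against control, 0.109 in BBBPH against model). In BBBPH against control livers 8 partners were called higher and 1 lower, with a median of 0.21, but median-ratio scaling left 1 higher and 2 lower. The higher count was 4 without BBBPH 2_2 and without the 3 libraries that stood apart, and 5 without BBBPH 3_1 or 3_2 or control 2_2, and the lower count was 2 without BBBPH 3_4.

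Among PPAR-gamma targets known from adipocytes or fatty liver, other than the members, 31 of 37 were tested. Whether PPAR-gamma or another receptor acts on these genes here was not tested. In model against control livers 14 were called higher and 3 lower, with a median of 0.43 beside 0.12 over all genes. Plin4 differed by 2.85 (adjusted p = 5.2e-08), Mogat1, which makes diacylglycerol, by 2.21 (adjusted p = 2.2e-06), and Anxa2, a membrane-binding protein, by 1.78 (adjusted p = 3e-06). The 3 lower ones were Pck1, Pnpla2 and Fabp5. In BBBPH against model livers 8 were called lower and 4 higher, with a median of -0.13 beside 0.02. The higher count was 2 without BBBPH 2_1 or 3_1 or model 1_4 or 2_3, with no filter and with robust=TRUE, and a filter at 5 FPKM left 5 lower. The 3 with the smallest p were Plin4 (-1.93, adjusted p = 2.9e-06), Mogat1 (-1.90, adjusted p = 9.9e-06) and Cfd, the complement protease adipsin (-4.11, adjusted p = 5.2e-05). Plin4 averaged 2.59 ± 0.565 FPKM in BBBPH, 13.0 ± 3.79 in model and 0.878 ± 0.157 in control livers. Mogat1 averaged 0.473 FPKM in BBBPH, 4.75 in model and 0.200 in control livers. Cidea averaged 0.0450, 12.0 and 0.233 FPKM, and Cpt1b 0.884, 1.73 and 0.910 FPKM, in the same order. Mogat1, Cidea and Cpt1b passed the filter only through the model group, which favours calls higher in model and lower in BBBPH livers. All are in both counts. Cfd ranged from 0.119 to 0.938 FPKM in BBBPH, 5.92 to 49.2 in model and 0.236 to 5.09 in control livers. In BBBPH against control livers 10 of 31 targets were called higher and 2 lower, where 24.4% of all genes were called higher and 3.7% lower. The targets' median was 0.22 beside 0.13, and median-ratio scaling left 5 higher and 3 lower. Plin1, Adipoq, Retn, Aqp7, Rbp7 and Adrb3 were under the filter and were not tested.

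**Figure D4:**
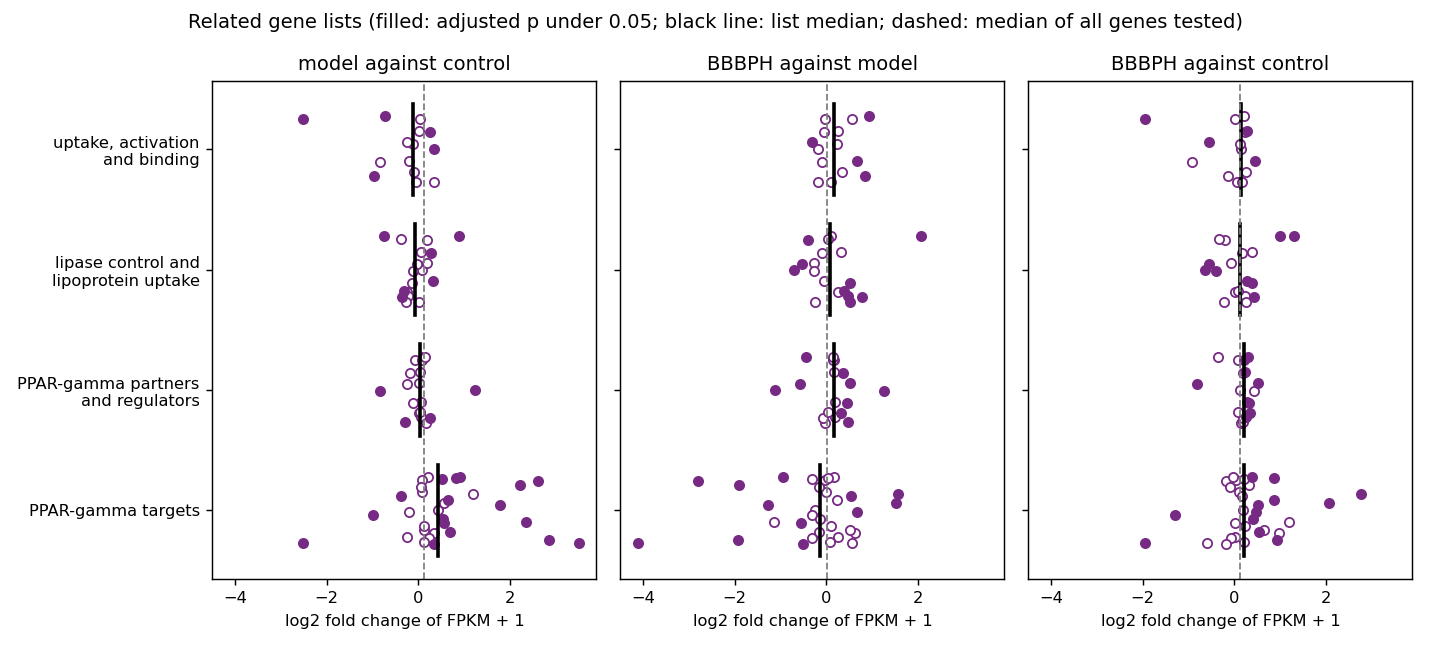
Differences in log2(FPKM + 1) of the tested genes of 4 related lists (14, 18, 18 and 31 genes from top to bottom) in model against control, BBBPH against model and BBBPH against control. Filled points have a limma adjusted p under 0.05, black lines are list medians and dashed lines the median of all genes tested. The PPAR-gamma targets have medians of 0.43, -0.13 and 0.22, beside 0.12, 0.02 and 0.13 for all genes.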

How the data were processed

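The authors deposited FPKM values per gene, 1 column per library. Per the submitters' processing notes, mm10 was the build, and HISAT2, HTSeq, fastp and DESeq2 are listed as tools; versions, annotation, filters and strand setting are not given in the sources used here. Total RNA was extracted with TRIzol, per the labels' protocols. Single-library files and the series table did not differ (0 FPKM at most). Depth was read from the whole-number steps of FPKM within a gene. Fragment numbers were recovered for 15275 of 17527 genes. Genes were kept only where a length made every value above 0 whole within 0.02, so that wholeness is no check of the depths. Libraries were not copies of each other (chi-square per gene within groups 29.3 to 341).

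Genes were tested with limma 3.58.1 (R 4.3.3) on log2(FPKM + 1), mean of at least 1 FPKM, 3 group means over 15 libraries, eBayes with trend=TRUE and 12 residual degrees of freedom. P-values were 2-sided and adjusted within each comparison. Vldlr, below the filter, had an exact permutation test. The fit was tested on simulated data with known changes and independent normal noise per gene. Such data hold no libraries that stand apart, unlike those here. The members, lists and tests were chosen with earlier results of these data known. Per list, the 3 called genes with the smallest p in model against control and in BBBPH against model were named, as were the 5 genes most like Cd36 and Pparg (no Gm, Rik or clone symbols); Got2, Acbd3, Slc27a5, Rxra, Pck1 and Pnpla2 were named after their values were seen. Some genes that the rule names are not reported here. Positions are from GENCODE M21 (GRCm38), upstream sequences from RefSeq (GRCm38.p6); the search for single copies of AGGTCA was added after the repeat gave no match. Alternatives were a filter at 5 FPKM or none, a pseudocount of 0.1, scaling to TPM, by median ratios or by quantiles, trend=FALSE, robust=TRUE, a 2-group fit, the replicate number as a block, voom and each library left out, and, chosen after seeing the data, voom with a mean of at least 10 fragments and the 3 libraries that stood apart left out.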

Additional observations from a re-analysis of the deposited data

Results flagged for a closer look

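Values in 1 of 5 libraries that lay far from the other 4 of their group (gap over range above 0.71, Dixon's critical value) were found 6 times in 105 groups of 5, over 35 genes; chance gives about 1 in 20. Cd36 was 50.6 FPKM in model 3_4, where the other model libraries held 82.6 to 92.2 FPKM. Fabp4 was 36.0 FPKM in control 2_1, where the others held 10.9 to 15.6 FPKM, and Lmf1, the lipase maturation factor, was 12.4 FPKM in that library, with 9.47 to 10.1 FPKM in the others. Control 2_1 is the library with skeletal muscle RNA, and Fabp3, the muscle form, reached 24.8 FPKM there, with at most 0.160 FPKM in any other library. Lpl was 5.94 FPKM in BBBPH 2_2, the library with pancreas RNA, where the others held 3.996 to 4.50 FPKM. Fabp5, an epidermal and macrophage form, was 31.1 FPKM in BBBPH 2_1, where the others held 12.9 to 13.4 FPKM, and 36.6 FPKM in model 1_4, where the others held 4.86 to 12.5 FPKM.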

How the results depend on the processing

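Over 750 values of single members under the alternatives, 0 turned a called direction. Counts of called genes changed by more than 1.5 times with a filter at 5 FPKM, to 2259 in model against control, 1634 between BBBPH and model livers and 1502 between BBBPH and control livers, by construction since fewer genes were tested, and to 1611 (median-ratio) and 1545 (quantile scaling) in BBBPH against control; quantile scaling left 2 members called there. The replicate number as a block left 1315, 305 and 185 genes in the 3 comparisons, with 1 member still called between BBBPH and model livers and 2 between BBBPH and control livers. That block has 9 numbers over 15 libraries, so a library whose number occurs once adds nothing to the fit. The labels do not say what the numbers mean, and same-numbered libraries did not deviate together (correlations of 8 pairs -0.33 to 0.02), so the block was not taken as a pairing. With it the adjusted p was 0.207 for Fabp4 and 0.136 for Lpl in model against control, 0.0805 for Pparg, 0.0913 for Lpl and 0.206 for Slc27a4 in BBBPH against model, and 0.0510 for Cd36 between BBBPH and control livers. Without the 3 libraries that stood apart, Vldlr differed by 0.66 in model against control and by -0.48 in BBBPH against model (adjusted p = 0.0857 each, exact permutation over 4 against 4 libraries), where neither was called. The smallest p that 4 against 4 libraries can give is larger than that of 5 against 5. These 2 lost calls therefore cannot be told apart from the smaller size of the test. Leaving out 1 library at a time, Vldlr ranged from -0.48 to -0.32 between BBBPH and model livers and from 0.15 to 0.26 between BBBPH and control livers, passing the threshold there without BBBPH 2_1 or 3_1. Of the 24 counts over the 4 related gene lists, 18 moved by over 1.5 times with the replicate block, 12 with median-ratio scaling, 7 with quantile scaling, and at most 4 under any other alternative. For other changes the cause was not tested. Vldlr rested on as few as 16 fragments in a library, and whether depth shaped its changes was not tested.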
